A study of Homo sapiens with 10 samples.

Results

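A set of 353 genomic regions held a BRD9 peak in 3 of 3 peak lists of control cells and in 0 of 3 lists of cells with induced SMARCB1, and overlapped a region that SMARCB1 occupied after induction. They were drawn from 116495 regions, obtained by merging the overlapping peaks (1 bp or more) of the 6 BRD9 lists on chromosomes 1 to 22 and X. The SMARCB1 regions were the 87641 merged SMARCB1 peaks held by both SMARCB1 lists. The 353 regions are called lost BRD9 regions at SMARCB1 here. The BRD9 calls in both conditions and the overlap with SMARCB1 chose them, so those values are given as a description and were not tested.

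SWI/SNF complexes are chromatin remodellers that use ATP to move or evict nucleosomes, and they occur in several forms. SMARCB1 is a core subunit of the canonical BAF and PBAF forms, and its loss defines most rhabdoid tumours. BRD9, a bromodomain protein that reads acetylated lysines, belongs to the non-canonical form (ncBAF, also called GBAF), which contains no SMARCB1. Rhabdoid tumour cells depend on BRD9 for growth.

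Chromatin occupancy was measured by CUT&RUN, in which an antibody tethers a nuclease that cuts and releases the DNA around its target. All cells were G401, an established rhabdoid tumour line with the genotype SMARCB1(-/-). Doxycycline induced GFP in the control cells and SMARCB1 in the others, so both groups received an induced transgene in the same mutant background. The lists comprised 3 replicates of BRD9 after GFP induction, 3 of BRD9 after SMARCB1 induction and 2 of SMARCB1 after SMARCB1 induction. The labels give neither the time nor the dose of doxycycline, nor whether replicates came from separate cultures, so the spread between lists may be technical. A peak list cannot show which genes the cells express, so the identity of the line was not checked here.

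Depth differed by protein. The BRD9 libraries held 10.1 to 13.9 M reads and 33112 to 44399 peaks on these chromosomes, with a median of 17 to 23 reads in a peak. The SMARCB1 libraries held 64.2 and 59.7 M reads, with medians of 55 and 53 reads. All BRD9 lists were called against a control library of 23.1 M reads and both SMARCB1 lists against one of 49.6 M reads. The names of the SMARCB1 lists give GFP as their negative control. Each list gives reads at its own peaks alone, so a lost region is one without a BRD9 call after induction, which does not show that BRD9 was absent.

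Lost regions were few. In all, 1210 of the 116495 merged regions (1.04%) were lost, and 353 of these (29.2%, 95% Wilson interval 26.7 to 31.8%) lay at SMARCB1. Of the 45271 BRD9 regions at SMARCB1, 0.78% were lost. Among regions called in 3 of 3 control lists the lost share was 13.8% in all, 7.84% of the 4503 at SMARCB1 and 20.2% of the 4241 away from SMARCB1. Regions with BRD9 calls in all control lists were thus lost in a smaller share of cases at SMARCB1 than away from it. These shares were not compared at like BRD9 density or region width, and the cause of the difference was not tested. At SMARCB1, 3328 regions were called in all 6 lists (constant regions) and 7861 were gained, with a call in 0 of 3 control and 3 of 3 induced lists.

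The count of 353 depended on the number of control lists required. It was 766 without GFP replicate 1, 684 without GFP replicate 2 and 696 without GFP replicate 3, when a call in both remaining control lists was enough. Of the 353 regions, 336, 340 and 337 overlapped a region of those larger sets. The share of lost regions at SMARCB1 was 15.6% without GFP replicate 2, where 684 of 4376 lost regions lay at SMARCB1.

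BRD9 peaks at the 353 regions were close in density to a typical peak of their list. Density is given as RPKM (read number divided by peak length in kb and by library size in M), and is that of the densest peak in the region. In GFP replicate 1 it ran from 2.40 to 6.72 RPKM with a median of 3.37, against 3.23 over all peaks of that list. In GFP replicate 2 it ran from 2.29 to 12.5 RPKM with a median of 3.61, against 3.18. In GFP replicate 3 it ran from 2.41 to 6.13 RPKM with a median of 3.48, against 3.36. The median region thus lay slightly above the median peak in each control list. The list medians are over single peaks, so taking the densest peak of a region can by itself raise its value against them. Replicate 2 had the widest range and the highest value in 174 of the 353 regions.

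Constant regions at SMARCB1 were denser in BRD9 in control cells. Their medians were 4.11, 5.70 and 4.35 RPKM in the 3 control lists (mean 4.72 ± 0.856, SD, n = 3), against a mean of 3.48 ± 0.121 RPKM for the lost regions at SMARCB1. Lost regions away from SMARCB1 had 3.20, 2.96 and 3.34 RPKM (mean 3.17 ± 0.191, SD, n = 3). The lost regions at SMARCB1 were thus nearer in BRD9 density to the other lost regions than to the constant ones. The BRD9 calls define all 3 sets, so this is a description. Constant regions were also wider (median 2189.5 bp, against 1175 bp for lost regions at SMARCB1) and can hold more peaks from which the densest is taken. BRD9 density was not compared at like width. The BRD9 control library also differed between the sets, at 0.663 ± 0.0216 RPKM over the control lists' peaks in lost regions at SMARCB1, 0.278 ± 0.00547 in lost regions away from it and 1.10 ± 0.0417 in constant regions (SD, n = 3 lists for each). Its part in the difference was not tested.

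Many of these peaks rested on few reads. The median peak at a lost region held 24, 25 and 25 reads in the 3 control lists, and 123, 112 and 106 of the 353 regions had fewer than 20 reads there. Over all peaks of the same lists the medians were lower, at 17, 18 and 18 reads. In 86 regions (24.4%) the density in each control list was above 3.39 RPKM, the highest of the 3 medians over called peaks of the induced lists. These control densities helped to choose the regions and do not show whether a peak of like density would have been called after induction.

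**Figure D1:**
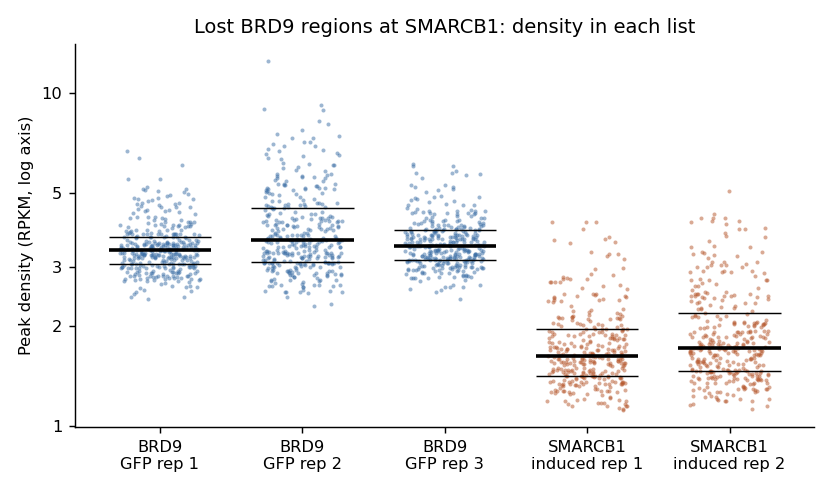
Density of the overlapping peak (RPKM, log axis) at each of the 353 lost BRD9 regions at SMARCB1, in the 3 BRD9 lists of GFP-induced cells and the 2 SMARCB1 lists of SMARCB1-induced cells; each point is a region, the thick line is the median and the thin lines are the quartiles. BRD9 medians lie between 3.37 and 3.61 RPKM and SMARCB1 medians at 1.62 and 1.72 RPKM; the BRD9 lists of SMARCB1-induced cells hold no peak in these regions.

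SMARCB1 was detected at these regions at a lower density than where BRD9 was called in all 6 lists or gained. The medians were 1.62 and 1.72 RPKM in SMARCB1 replicates 1 and 2 (mean 1.67 ± 0.0683, SD, n = 2). Constant BRD9 regions had 2.21 and 2.42 RPKM (2.31 ± 0.152) and gained BRD9 regions 1.95 and 2.17 RPKM (2.06 ± 0.156, SD, n = 2 for each). In each replicate the lost regions were the lowest of the 3 sets, and both gaps were larger than the difference between replicates. Constant regions had 1.38 ± 0.0344 times and gained regions 1.23 ± 0.0428 times the median of the lost regions (SD, n = 2). A sign-flip permutation over 2 lists cannot go below a two-sided p of 0.5, so the differences are given without a test. The order was kept in both lists under all 11 alternatives in which it was recomputed, a check chosen after seeing the data.

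The lost regions were not at the bottom of SMARCB1 occupancy as a whole. Over all SMARCB1 regions the median was 1.45 and 1.49 RPKM, and the median of the lost regions stood at percentile 71.4 and 72.4 of that distribution. Overlap with a BRD9 region favours wide SMARCB1 regions, and the percentile was not taken at like SMARCB1 region width. Values ran from 1.12 to 4.10 RPKM in replicate 1 and from 1.13 to 5.07 RPKM in replicate 2. A SMARCB1 region may hold the peaks of the lists at different places: 15 of the 353 regions touched no peak of replicate 1 and 2 touched none of replicate 2, and these enter the median of the other list alone.

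The control library of the SMARCB1 lists was denser at lost than at gained regions. It had 0.550 and 0.512 RPKM over the peaks of the 2 lists at lost regions, 0.382 and 0.379 at gained regions and 0.573 and 0.544 at constant regions. The median ratio of SMARCB1 to control density was lowest at lost regions, with 2.93 and 3.30, against 3.83 and 4.40 at constant and 5.21 and 5.87 at gained regions. By this ratio, as by density, the lost regions were the lowest of the 3 sets in both replicates.

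**Figure D2:**
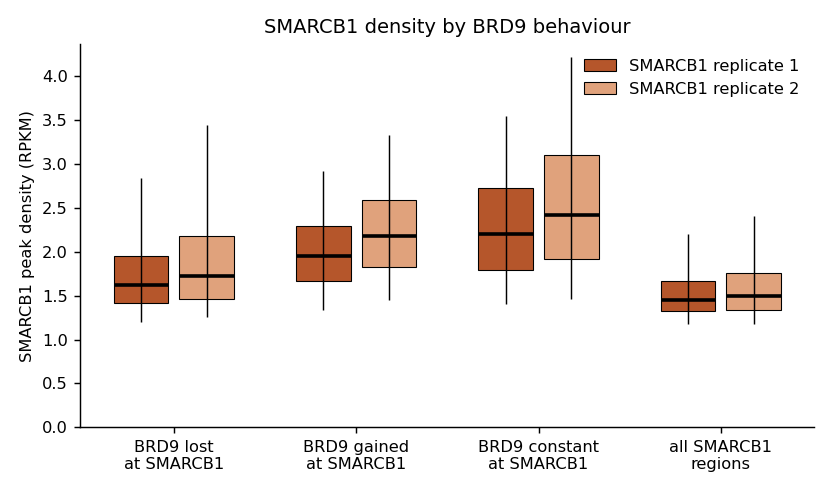
SMARCB1 peak density (RPKM) in the 2 SMARCB1 lists at BRD9 regions that were lost, gained or constant at SMARCB1, and at all SMARCB1 regions; boxes span the quartiles, thick lines are medians and whiskers reach from the 5th to the 95th percentile. In each list the lost regions (medians 1.62 and 1.72 RPKM) lie below the gained and constant regions and above SMARCB1 regions as a whole.

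The difference in SMARCB1 density remained among regions of like width. A wider BRD9 region can touch more SMARCB1 peaks, and constant regions were wider (median 2189.5 bp) than lost ones (1175 bp) or gained ones (1087 bp). Among regions of 500 to 1000 bp the SMARCB1 medians were 1.69 and 1.76 RPKM for 132 lost, 1.96 and 2.04 for 276 constant and 1.85 and 2.04 for 3176 gained regions. Among regions of 1500 to 2000 bp they were 1.60 and 1.65 RPKM for 67 lost, 2.09 and 2.30 for 573 constant and 2.09 and 2.34 for 1070 gained regions. At both widths the lost regions were the lowest in each list.

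It also remained within each of 3 groups of BRD9 density in control cells. The 4503 regions called in 3 of 3 control lists at SMARCB1 were divided into 3 equal groups by mean BRD9 density in control cells. In the group of 2.62 to 3.85 RPKM the SMARCB1 medians were 1.56 and 1.68 RPKM at 258 lost regions and 1.83 and 1.97 at 724 constant ones. In the group of 3.85 to 4.98 RPKM they were 1.78 and 2.03 RPKM at 73 lost and 2.05 and 2.25 at 1179 constant regions. In the densest group they were 2.01 and 2.25 RPKM at 22 lost and 2.60 and 2.95 at 1425 constant regions. Lost regions were lower in each of the 3 groups and in both SMARCB1 lists. The groups are broad, and the densest runs from 4.98 to 26.4 RPKM. BRD9 density and region width were not compared within a group, so lost and constant regions may still differ in them.

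The fewer induced lists held a BRD9 peak, the lower was SMARCB1. Among regions called in 3 of 3 control lists, those with 0, 1, 2 and 3 calls after induction numbered 353, 317, 505 and 3328. Their SMARCB1 medians were 1.62, 1.70, 1.77 and 2.21 RPKM in replicate 1 and 1.72, 1.83, 1.89 and 2.42 RPKM in replicate 2. Median BRD9 density in GFP replicate 1 rose along the same order, from 3.37 through 3.37 and 3.48 to 4.11 RPKM, so the regions called in all 6 lists were denser in both proteins. Regions with 0, 1 or 2 calls lay close together, and the step to those with 3 calls was the widest.

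Divided instead into 5 equal groups by mean SMARCB1 density, the same 4503 regions showed a falling share of lost BRD9. It was 19.2% (Wilson interval 16.8 to 21.9%, 173 of 901) in the group of 1.12 to 1.66 RPKM and 9.44% (7.70 to 11.5%) in the next. The denser groups had 4.22%, 4.0% and 2.33% (1.53 to 3.54%, 21 of 901, above 2.94 RPKM). The share of constant regions was 49.4% in the lowest group and 89.2% in the highest. SMARCB1 and BRD9 density were related, so regions were then grouped by both.

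Within the lowest BRD9 group the lost share was 26.4% (22.8 to 30.2%) at the lowest SMARCB1 density and 5.13% (2.01 to 12.5%) at the highest. Within the highest BRD9 group the corresponding shares were 7.14% (3.32 to 14.7%) and 0.974% (0.447 to 2.11%). The fall was not continuous in any of the 3 BRD9 groups. It ran from 9.22% through 4.82% and 2.14% to 3.92% and 5.31% in the middle group, and in the lowest group the share was 8.85% and then 12.3% in groups 3 and 4 of SMARCB1 density. The share was thus highest at low SMARCB1 density in each BRD9 group, while its course at high SMARCB1 density differed between them. The intervals cover counting error only, and neighbouring regions are not independent.

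**Figure D3:**
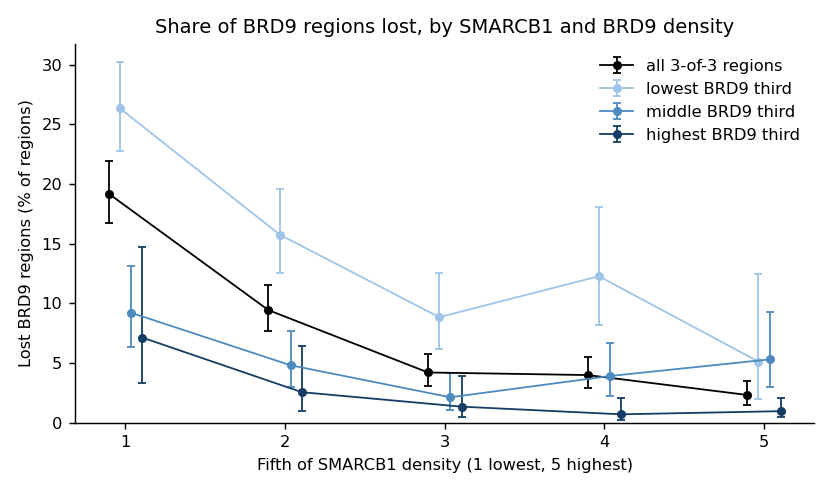
Share of regions that lost BRD9 (%) among the 4503 regions at SMARCB1 with a BRD9 peak in 3 of 3 control lists, by group of SMARCB1 density (1 lowest, 5 highest); black is all regions and the blue lines are 3 groups of BRD9 density in control cells, with 95% Wilson intervals. The share over all regions falls from 19.2% to 2.33%, and it is highest at the lowest SMARCB1 density in each BRD9 group.

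Within the 353 regions themselves, SMARCB1 and BRD9 density were loosely related in the same direction. Across regions, mean SMARCB1 density and mean BRD9 density in control cells had a Spearman rho of 0.318 and a Pearson r of 0.404 (n = 353 regions, which share libraries and are not independent). The 86 regions of high BRD9 density described above had SMARCB1 medians of 1.76 and 1.88 RPKM, and the other 267 had 1.59 and 1.69 RPKM. The regions with more BRD9 in control cells thus tended to have more SMARCB1 in SMARCB1-induced cells.

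SMARCB1 covered most of the average lost region, but less completely than at gained ones. The median lost region was covered over 98.2% of its length, and 171 of 353 (48.4%) lay wholly inside SMARCB1 regions. The corresponding shares wholly inside were 70.9% of constant and 89.7% of gained regions. In 49 lost regions (13.9%) SMARCB1 covered under 50% of the length, against 5.44% of constant and 0.382% of gained regions. Partial overlap was thus more frequent among the lost regions than in either other set. The median cover was 84.8% without SMARCB1 replicate 1 and 73.4% without SMARCB1 replicate 2, where the peaks of the other list alone were the reference.

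The SMARCB1 regions at lost BRD9 sites were wider than most. Their median width was 2575 bp (quartiles 1225 and 5700 bp), against 1225 bp for all SMARCB1 regions, 3530 bp at gained and 5500 bp at constant regions. A wide SMARCB1 region can be overlapped by more BRD9 regions, so a width above that of all SMARCB1 regions is partly built in. The order of lost and constant regions changed with the width of the BRD9 region. At BRD9 regions of 500 to 1000 bp the medians were 2138 bp for lost, 1650 bp for constant and 2875 bp for gained regions. From 1000 to 1500 bp they were 3350, 2641.5 and 3575 bp, and from 1500 to 2000 bp 2463, 4425 and 4150 bp. The median of 2575 bp depended on the merging of the 2 lists, and was 1450 bp without SMARCB1 replicate 1 and 1100 bp without SMARCB1 replicate 2. SMARCB1 regions of 10 kb or more held 58 of the lost regions (16.4%), 16.7% of gained and 32.4% of constant regions. The lost regions resembled the gained ones in this respect.

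The strongest points of the proteins often lay apart. The apex, the position of highest signal in a peak as deposited, was compared between the BRD9 peak of control cells and the SMARCB1 peak. Median distances at lost regions were 322.5 to 578 bp over the 6 pairs of lists, with a mean of 398 bp against SMARCB1 replicate 1 and 558 bp against replicate 2. The apices of lost regions were 171 to 214 bp apart between control lists and 248 bp between the SMARCB1 lists, so the distance between proteins exceeded that between replicates.

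At constant regions the medians were 328 to 416.5 bp for BRD9 of control cells and 293 to 330.5 bp for BRD9 of induced cells. At gained regions they were 194 to 199 bp. With BRD9 of control cells, both apices lay within 250 bp in 33.6 to 44.4% of lost and 38.4 to 43.6% of constant regions. With BRD9 of induced cells they did so in 43.9 to 45.6% of constant and 58.9 to 59.8% of gained regions. Lost and constant regions thus overlapped in range for BRD9 of control cells, and gained regions, which have BRD9 peaks of induced cells alone, had the shortest distances.

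After induction BRD9 was often called elsewhere in the same SMARCB1 region. The 353 lost regions touched 361 SMARCB1 regions, of which 12 held 2 or more lost regions. A BRD9 peak of the induced lists lay elsewhere in the same SMARCB1 region for 113, 116 and 117 lost regions in replicates 1, 2 and 3 (32.0, 32.9 and 33.1%). In any of the 3 lists it was 136 regions (38.5%, Wilson interval 33.6 to 43.7%). The mean share of 32.7% was 22.1% without SMARCB1 replicate 1 and 19.8% without SMARCB1 replicate 2, where SMARCB1 regions were narrower.

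These 136 regions differed from the other 217. They lay in SMARCB1 regions with a median width of 7760 bp, against 1450 bp. Their SMARCB1 medians were 1.98 and 2.35 RPKM, against 1.52 and 1.57 RPKM. BRD9 density in control cells was similar, with medians of 3.39, 3.79 and 3.48 RPKM against 3.35, 3.56 and 3.48 RPKM. The lost regions with a BRD9 peak of induced cells in the same SMARCB1 region thus lay in wider and denser SMARCB1 regions than the others. Whether those peaks were also called in control cells was not examined. The other 217 lost regions had a median width of 1263 bp, which left little room for a BRD9 peak elsewhere in their SMARCB1 regions. The difference in width is thus partly built in, and SMARCB1 density was not compared at like width of the SMARCB1 region.

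The share with BRD9 beside the lost stretch rose with the width of the SMARCB1 region. Of the 95 SMARCB1 regions of 1000 to 2000 bp that held a lost region, 1.05, 2.11 and 3.16% held a BRD9 peak of induced replicates 1, 2 and 3, against 19.2, 17.7 and 18.9% of all SMARCB1 regions of that width. Of the 97 of 2000 to 5000 bp, 27.8, 26.8 and 26.8% did, against 40.7, 40.6 and 42.1% of all. Of the 42 of 5000 to 10000 bp, 69.05, 73.8 and 78.6% did, against 68.1, 69.5 and 70.3% of all. Of the 55 of 10 kb or more, 92.7, 94.5 and 90.9% did, against 90.1, 91.3 and 92.3% of all. A region under 1000 bp has little room outside the lost stretch, and 0 of 72 held one. The shares were thus lower than those of all regions below 5000 bp and close to or above them in wider regions. The rule itself lowers them, since the lost stretch holds no induced peak, and the differences were not tested.

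Measured over the genome, the nearest BRD9 peak after induction lay a few kb away. Its median distance was 5021, 4815 and 4500 bp in induced replicates 1, 2 and 3, and 66, 60 and 71 of the 353 regions had one within 1 kb. For lost regions away from SMARCB1 the medians were 5463, 6899 and 6725 bp. Taking all 3 lists together, 79 lost regions at SMARCB1 (22.4%) had no BRD9 peak within 10 kb, and 12 had none within 100 kb.

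Constant BRD9 regions were closer neighbours than gained ones. The median distance to a constant region at SMARCB1 was 16507 bp, and to a gained one 84962 bp. A constant region at SMARCB1 lay within 5 kb of 106 lost regions (30.0%), while a gained region did so for 11 (3.12%), although gained regions were more numerous. For lost regions away from SMARCB1 the shares were 8.75% and 1.87%. Most lost regions at SMARCB1 thus had no constant region within 5 kb, and fewer still had a gained one.

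The chromosomes contributed unequally. Chromosome 1 held 46 of the 353 regions (13.0%, against 9.89% of all SMARCB1 regions) and chromosome 5 held 29 (8.22%, against 5.51%). Chromosomes 2, 3, 10 and 17 held 23 each (6.52%), against 8.60, 6.94, 5.49 and 4.44% of all SMARCB1 regions, so 2 and 3 lay below that background and 10 and 17 above it. As a share of all lost regions on the chromosome, those at SMARCB1 made up 60.0% on chromosome 20 (18 of 30, Wilson interval 42.3 to 75.4%) and 47.8% on chromosome 4 (22 of 46, 34.1 to 61.9%). On chromosome 19, which held the most lost regions, the share was 10.2% (18 of 176, 6.57 to 15.6%), and on chromosome 21 it was 6.25% (1 of 16). Chromosome 19 held 18.4% of the lost regions away from SMARCB1 but 5.10% of those at SMARCB1. Chromosomes 19 and 20 held 2.58 and 2.23% of all SMARCB1 regions, so at 5.10% each both lay above that background. Of constant regions at SMARCB1 they held 9.31 and 1.92%, so chromosome 19 lay below that share and chromosome 20 above it.

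Set against the regions that could be lost, chromosome 20 also led. Of its 96 regions called in 3 of 3 control lists at SMARCB1, 18.75% were lost, compared with 11.98% on chromosome 17, 11.2% on chromosome 4 and 10.5% on chromosome 5. The lowest shares were 1.64% on chromosome 21, 2.96% on chromosome 12 and 4.24% on chromosome 19. Differences between chromosomes were not tested, since regions of a chromosome lie in groups.

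**Figure D4:**
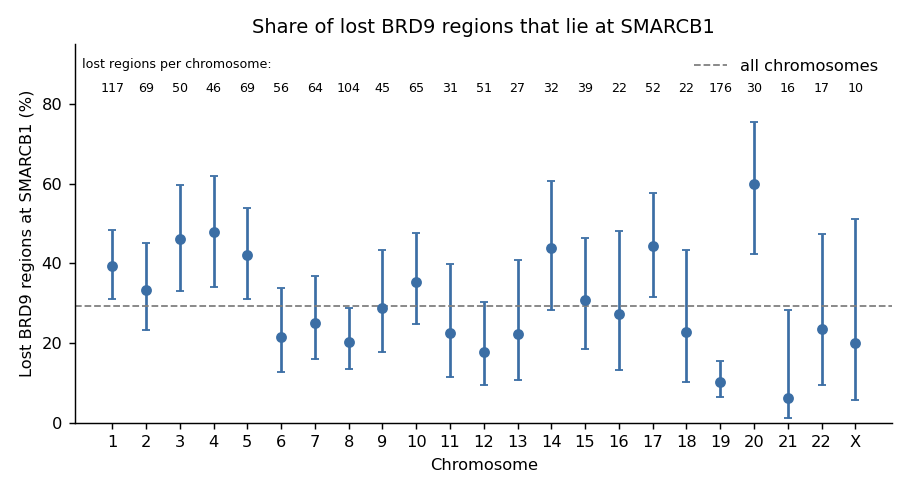
Share of lost BRD9 regions that lie at SMARCB1 (%) on each chromosome, with 95% Wilson intervals; the number of lost regions is given above and the dashed line is the share over all chromosomes, 29.2%. Chromosome 20 (60.0%) is the highest and chromosomes 19 (10.2%) and 21 (6.25%) are the lowest.

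Some lost regions at SMARCB1 lay near each other. Joining regions within 100 kb of each other, a distance chosen after seeing the data, left 206 alone and placed 147 in 55 groups. Of these groups, 22 held 3 or more lost regions, 81 in all. A constant region at SMARCB1 lay inside 13 of the 22, and a lost region away from SMARCB1 inside 3. In 5 groups, with 20 lost regions, none of the 3 induced lists held a BRD9 peak between the first and the last lost region. The rule itself keeps induced peaks out of the lost regions, so only the stretches between them could have held one. How often other stretches of like length hold no induced peak was not examined. The regions of a group are not independent of each other. Constant, gained and other lost regions were not joined in this way. Whether lost regions at SMARCB1 lie in groups more often than these is therefore not known.

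A group of 6 lost regions lay on chromosome 4 from 42414201 to 42515201 (positions are in hg19, which the SMARCB1 lists and the submitters' processing notes name; the BRD9 lists name no build), a span of 101 kb. The control lists held 8, 16 and 10 BRD9 peaks in the span, the induced lists 0, 0 and 0, and the SMARCB1 lists 31 and 28. The stretch without a BRD9 peak in any induced list reached further, from 42076676 to 43079055, or 1002 kb. In it the control lists held 9, 23 and 11 BRD9 peaks and the SMARCB1 lists 43 and 44. Most BRD9 peaks of the stretch thus lay within the group in each of the 3 control lists.

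The densest lost region of that group, chosen after its values were seen, ran from 42502226 to 42504451. Its BRD9 density was 4.01, 4.51 and 4.62 RPKM in the 3 control lists (4.38 ± 0.324, SD, n = 3). A SMARCB1 region of 4000 bp covered it wholly, with 1.96 and 2.04 RPKM in the SMARCB1 lists. The other 5 regions of the group had mean BRD9 densities of 3.47 to 4.01 RPKM.

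A second group, of 5 lost regions, lay on chromosome 5 from 124708150 to 124722726, a span of 14.6 kb. The control lists held 8, 6 and 6 BRD9 peaks there, the induced lists 0, 0 and 0, and the SMARCB1 lists 5 and 5. The surrounding stretch without a BRD9 peak of an induced list was 131 kb long and held 20, 13 and 17 BRD9 peaks of the control lists. A single SMARCB1 region of 8475 bp with 2.71 and 2.90 RPKM covered 3 of the 5 completely. The densest of them, from 124711709 to 124713393, had 5.04, 7.75 and 5.31 RPKM of BRD9 in control cells (6.03 ± 1.49, SD, n = 3).

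The remaining 3 groups without a BRD9 peak after induction held 3 lost regions each. They lay on chromosome 2 from 209044045 to 209079126, on chromosome 20 from 621801 to 628751 and on chromosome 3 from 4770497 to 4775526. At the other extreme, a group of 6 on chromosome 4 from 166434332 to 166622609 held 56, 50 and 57 BRD9 peaks in control lists, 39, 39 and 37 in induced lists and 14 constant regions. It also held 2 gained regions, so BRD9 peaks were numerous there in both conditions.

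**Figure D5:**
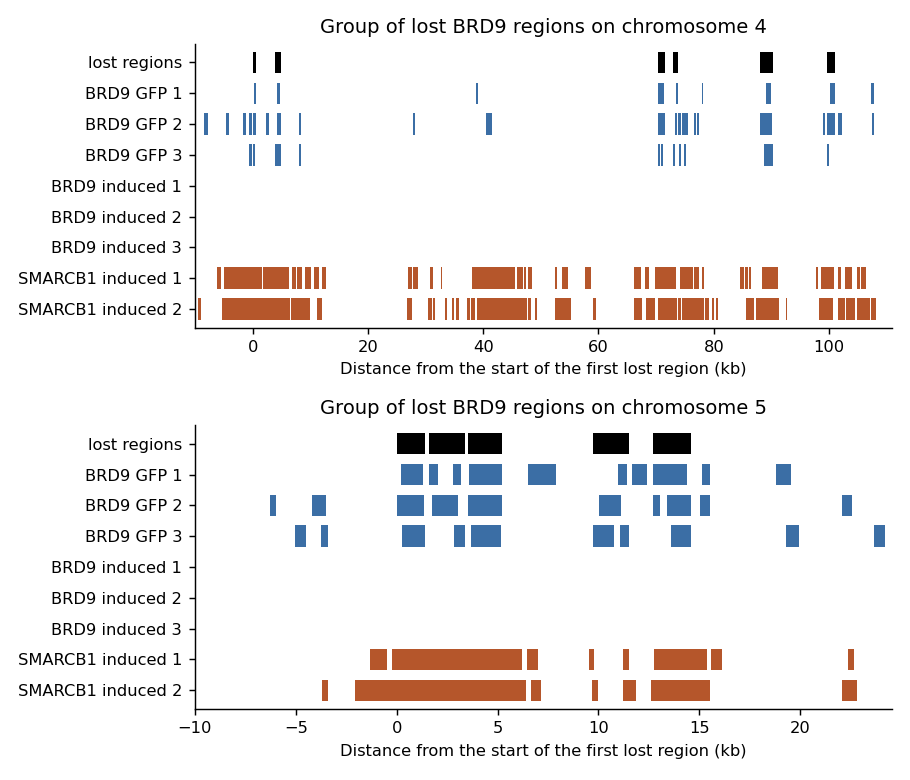
Peaks of the 8 lists in 2 groups of lost BRD9 regions at SMARCB1, on chromosomes 4 and 5; the horizontal axis is the distance in kb from the start of the first lost region, black bars are the lost regions and coloured bars are peaks. BRD9 peaks are present in each of the 3 control lists and in 0 of the 3 induced lists, where both SMARCB1 lists hold peaks. The rule itself excludes induced BRD9 peaks from the black bars, and the groups were chosen for having none between them.

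By mean rank of the authors' score over the control lists, the highest lost region at SMARCB1 was on chromosome 8 from 132903276 to 132909983, and was also the widest, at 6707 bp. Its BRD9 density was 6.72, 12.5 and 5.85 RPKM in the 3 control lists. SMARCB1 covered 24.0% of it, with 2.11 and 1.45 RPKM. The next, on chromosome 8 from 127622991 to 127624751, had 6.38, 8.89 and 6.03 RPKM of BRD9 and 1.49 and 1.48 RPKM of SMARCB1 over 42.8% of its length. In this one the nearest BRD9 peaks after induction were 983, 1947 and 1450 bp away. The 2 highest regions were thus overlapped by SMARCB1 over less than their full length.

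The third was the region on chromosome 5 described above. The fourth, on chromosome 6 from 139722826 to 139725026, had even BRD9 densities of 4.90, 4.98 and 4.79 RPKM and a SMARCB1 density of 1.36 and 1.37 RPKM. The fifth, on chromosome 1 from 183244695 to 183246420, had 5.53, 7.33 and 6.13 RPKM of BRD9 and 1.57 and 1.66 RPKM of SMARCB1. The other 3 of the first 8 lay together on chromosome 2, from 164024174 to 164028178, from 164037854 to 164039676 and from 164028434 to 164030545. They had mean BRD9 densities of 4.90, 5.82 and 5.34 RPKM and mean SMARCB1 densities of 1.68, 1.84 and 1.57 RPKM, and all 3 lay in SMARCB1 regions that held a BRD9 peak of induced cells elsewhere. Among these 8, GFP replicate 2 had the highest BRD9 density in each case.

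The lost regions densest in SMARCB1 lay inside broad SMARCB1 domains. One on chromosome 8 from 127405200 to 127406108 had 4.10 and 5.07 RPKM of SMARCB1 in a region of 26988 bp. A pair on chromosome 9, from 3946779 to 3947642 and from 3937941 to 3939013, shared a SMARCB1 region of 110950 bp and its densities of 4.09 and 4.22 RPKM, since density is averaged over a peak. One on chromosome 2 from 58874724 to 58875496 had 3.91 and 4.10 RPKM in a region of 40950 bp. BRD9 peaks of induced cells lay in the same SMARCB1 region in all 4 cases, at distances of 285 to 6086 bp.

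The 4 lost regions weakest in SMARCB1 had densities of 1.13 to 1.20 RPKM. They were on chromosome 4 from 84104443 to 84105076, with 1.13 RPKM in replicate 2 and no peak of replicate 1, and from 40593184 to 40594871, with 1.13 and 1.19 RPKM. The others were on chromosome 1 from 210031126 to 210031976, with 1.18 and 1.15 RPKM, and on chromosome 3 from 4774676 to 4775526, with 1.16 and 1.20 RPKM. Their SMARCB1 regions were 775 to 2500 bp wide, below the median of 2575 bp at lost regions, and in 0 of the 4 did a BRD9 peak lie elsewhere in the same region after induction.

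The limits of the rule can be read from regions near it. The narrowest lost region, on chromosome X from 122992528 to 122992971, was 443 bp wide and had 3.00, 3.08 and 3.68 RPKM of BRD9. The smallest overlap with SMARCB1 was 1.62% of a region on chromosome 3 from 57633409 to 57636001. The lowest-ranked lost region, on chromosome 7 from 47646251 to 47647151, had 2.90, 3.52 and 3.19 RPKM of BRD9 from 10, 16 and 15 reads, and a BRD9 peak of induced replicate 3 began 150 bp away. Just outside, 1002 regions at SMARCB1 had 2 of 3 control calls and no induced call, and 317 had 3 control calls and 1 induced call. Of these 317, the one with the weakest induced call was on chromosome 20 from 52475876 to 52477001, with 3.12, 3.64 and 2.80 RPKM of BRD9 in control cells and 2.47 RPKM in induced replicate 3. The next were on chromosome 2 from 75808451 to 75810326 and on chromosome 13 from 63969970 to 63972176, with 2.77 and 2.92 RPKM in the induced list that called them. The BRD9 densities of control cells in these regions overlapped with those of the lowest-ranked lost region.

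The BRD9 calls were also looked up in lists that took no part in the choice. Regions at SMARCB1 were chosen from 2 control and 2 induced lists, and were then looked up in the control and the induced list left out. Over the 9 ways of leaving out a list of each group, 832 to 1041 regions were chosen. Of these, 54.5% on average (48.0 to 61.2%) had a BRD9 peak in the control list left out, and 21.9% (17.8 to 26.4%) in the induced list left out. The control list was higher in all 9 cases, by 22.3 to 40.8 percentage points (mean 32.6). The direction of the rule thus recurred in the lists left out, while only about 1 in 2 of the regions chosen from 2 control lists was called in another. The 9 choices share lists and were not tested. The same look-up for lost regions away from SMARCB1 gave 48.1% (25.5 to 66.9%) and 17.1% (10.02 to 27.3%). The mean difference was 31.0 points, with a wider range of 3.77 to 50.4 points. The low values came from leaving out GFP replicate 2, with differences of 3.77, 15.5 and 14.3 points. With GFP replicate 1 or 3 left out they ran from 29.0 to 50.4 points.

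Some lost regions counted as away from SMARCB1 lay close to it. Of those 857 regions, 114 (13.3%) touched a peak of at least 1 SMARCB1 list without a region held by both, and the median distance to a SMARCB1 region held by both lists was 12833 bp. With peaks of either SMARCB1 list as the reference, 467 of the 1210 lost regions (38.6%) lay at SMARCB1.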

How the data were processed

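Each deposited list gives the peaks of 1 CUT&RUN library, so the authors called peaks per replicate. Lists were available for 8 of 10 samples; the other 2 (SMARCB1 after GFP induction and IgG) were not analysed here. Per the file headers, a list holds raw read counts of the sample and a control library, the deposited RPKM values, log2 fold differences, a strand ratio, an apex position, and the −log10 of the p-value and false discovery rate, the latter used as the score. The submitters' processing notes name BWA 0.7.12-r1039, SAMtools, bedtools, DiffBind and edgeR, without roles, and hg19; the peak caller is not given in the sources used here. The BRD9 lists name no build. Library sizes were recovered from counts and RPKM.

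From the lists, peaks were merged, called and overlapped (1 bp or more) with Python 3.11.15, numpy 2.4.6, pandas 2.3.3 and scipy 1.17.1. A simulation with 452 planted regions returned 452. Members, sets and named regions (by rank, SMARCB1 density, width and overlap, by a written rule) were chosen with earlier results of these data known. No genome or gene annotation of hg19 was used here, so sequences, motifs and gene names are not given. Wilson intervals are 95% and cover counting error only. Alternatives were stricter overlap and score, merging within 500 bp, another SMARCB1 reference, equal peak numbers, all sequences, overlap-weighted density, left-out lists and a replicate block.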

Additional observations from a re-analysis of the deposited data

How the results depend on the processing

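Over 75 recomputed values under 16 alternatives, 56 stayed within their spread over lists (counts: within 1.5 times), 19 moved and 0 reversed. The number of lost regions at SMARCB1, 353, ran from 372 to 766 when 1 list was left out; fewer control lists ask for fewer calls. It was 251 with the higher-scoring part of each list, which shared 123 regions with the main set, and 354 with all sequences. SMARCB1 density at these regions (1.67 RPKM) was 1.92 with the higher-scoring part and 1.60 with merging within 500 bp, and 1.60 to 1.70 with lists left out. SMARCB1 region width (2575 bp) was 3775 bp with the higher-scoring part, 3187.5 bp with merging and 1600 bp with SMARCB1 peaks of either replicate, and 1100 to 2712.5 bp with lists left out. The cover by SMARCB1 ran from 73.4 to 100% with lists left out. The share with BRD9 elsewhere in the SMARCB1 region (mean 32.7%) was 34.0%, 26.6% and 24.8% under those 3 alternatives and 19.8 to 37.9% with lists left out. The cause was not tested, except that a reference of 1 SMARCB1 list has narrower regions by construction. With SMARCB1 peaks of either replicate the lists were still merged, but regions held by 1 list also counted. The lost regions at SMARCB1 then numbered 467.

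The replicate numbers are shared between groups, and the lists were not taken as paired. Deviations of the calls of same-numbered BRD9 lists from their group means had r = 0.00953, 0.00765 and 0.00128 over 116495 regions. A region called in all or none of the lists of a group adds nothing to r, so these values cannot exclude pairing. With a replicate block, using the 3 same-numbered pairs of left-out lists, the held-out difference was 33.6 points, against 32.6 over all 9. At a median of 24 or 25 reads per BRD9 peak, a missing call after induction is not a measured absence.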
